A study of Mus musculus with 2 samples.

Results

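The genes described here are 9 calcium-binding or membrane-binding genes of mouse epidermal lymphocytes: the S100 genes S100a4, S100a6, S100a10, S100a11 and S100a13, and the annexin genes Anxa1, Anxa2, Anxa5 and Anxa6. They were chosen by name, as S100 genes and the annexins that S100 proteins bind or resemble in their handling of calcium. All 9 were among the 31053 genes counted.

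S100 proteins are small proteins that carry a pair of EF-hand loops, the fold that holds calcium, and most of them open a surface for a target protein once calcium is bound. Annexins bind negatively charged membrane lipids when calcium rises, and work in membrane repair, vesicle traffic and the linking of actin to membranes. The families meet in complexes: a dimer of S100A10, which has lost calcium binding and keeps the open shape, joins a pair of annexin A2 molecules at the inner face of the plasma membrane, and S100A11 binds the tail of annexin A1. In T cells, several S100 genes are known to be more abundant after effector differentiation and in cells that live in tissues.

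Both libraries came from live cells of ear epidermis, sorted as CD45+EpCAM-MHC-II-, of wild-type (WT) female FVB/NJ mice that were 8 weeks old. One library was from mice given isotype control antibody into the skin and the other from mice given anti-Skint1 antibody, each 7 d before. Skint1 is a keratinocyte surface protein of the immunoglobulin family, needed for the normal selection of dendritic epidermal T cells (DETCs), the γδ T cells of mouse epidermis, and the study asks what these cells do when it is blocked. Droplets were prepared with 10x Chromium 3′ chemistry and sequenced on an Illumina HiSeq. By the paper's n for these data, each group was a single mouse, if its general statement on n, which counts mice, holds here.

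The isotype library held 27272211 unique molecular identifiers (UMIs, 1 for each captured mRNA molecule) and the anti-Skint1 library 32450957. After limits on genes and on mitochondrial UMIs, 4242 and 5961 barcodes remained, and 5 barcode sequences were in both sets, where 3.72 would be shared by chance draws from the barcode list. Of the kept barcodes, 3544 in the isotype library (83.5%) and 4945 in the anti-Skint1 library (83.0%) passed the DETC gate. That gate asks for at least 3 UMIs of Trdc, the δ chain constant gene, at least 3 over the CD3 genes, and none of Trac, Cd4, Cd8a or Cd8b1. The alpha-beta (αβ) T gate, at least 1 Trac UMI and no Trdv4, held 197 and 213 barcodes. The gate for innate lymphoid cells (ILCs), at least 3 UMIs over Il7r, Rora and Gata3 with at most 2 CD3 UMIs and no Trdv4, held 82 and 139. Of these, 9 and 14 barcodes passed both of the latter gates and count in both. Levels (CPM) are UMIs of a gene per 1000000 UMIs of a class in a library. Doublets were kept, and an alternative without likely doublets is given with the other alternatives. UMIs here mark the 3′ ends of mRNAs, so levels of different genes are compared without dividing by length. Brackets give 95% intervals for counting error, which hold nothing of the variation among mice. For levels and ratios they also leave out the spread among cells beyond counting, so they are too narrow where that spread is large. With a single library for each antibody, an effect of the antibody cannot be told apart from a difference between libraries, and no tests were made.

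The DETC gate matched its name by genes it does not use: Ptprc, which encodes CD45, was at 943.5 CPM in the isotype and 956 CPM in the anti-Skint1 library, and Trdv4, the δ segment of the DETC receptor, was at 978 and 789 CPM. Tcrg-V5, its γ segment, was at 59.0 and 62.6 CPM. The αβ T gate was less pure by marker: Trac stood at 584 and 499 CPM in it, but Trdc stood at 299.7 and 546 CPM and Il17a, which dermal γδ T cells make, at 64.9 and 126 CPM. The name αβ T cells below stands for all barcodes of this gate, those with Trdc UMIs included. ILC-gated barcodes carried Il7r at 757 and 717 CPM, but the gate itself uses this gene, so its level does not bear on the name. Ncr1, a receptor of natural killer and group 1 ILCs that the gate does not use, gave 0 and 1 UMI in these barcodes. Their Ptprc level was 483 and 437 CPM. These barcodes also held keratinocyte RNA: the 5 genes of the keratinocyte list summed to 431 CPM in the isotype and 3999 CPM in the anti-Skint1 library, led by Krt14 at 282 and 1864 CPM, while the list summed to 18.8 and 30.8 CPM in DETCs. The myeloid list of 5 genes summed to 830.5 and 1334 CPM in ILC-gated barcodes, led by Cd74 at 763 and 1059.9 CPM, with Cd207, a Langerhans cell gene, at 60.1 and 273 CPM and Csf3r, a neutrophil gene, at 0 UMIs. Barcodes with at least 5 UMIs of either list were therefore left out in a second ILC set of 71 and 116 barcodes, called cleaned below. In it the keratinocyte list summed to 22.1 and 35.6 CPM and the myeloid list to 85.1 and 119 CPM.

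In DETCs the S100 genes filled a wide range, from some of the most abundant mRNAs of the cell to a moderate level. S100a6 was at 6488 CPM [6447 to 6529] in the isotype and 7494 CPM [7455 to 7533] in the anti-Skint1 library, ranks 11 and 10 among detected genes. S100a4, whose protein binds non-muscle myosin and is linked to cell motility, was at 5604 and 6020.2 CPM, ranks 14 and 12. These were the most abundant members in every class. S100a11 followed at 1694 and 1659 CPM, S100a10 at 773 and 797 CPM, and S100a13, which takes part in the unconventional release of cytokines and growth factors that lack a signal peptide, at 353 and 357 CPM. The order of the S100 genes was the same in both libraries.

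Among the annexins of DETCs, Anxa2 was highest, at 581 CPM [569 to 594] in the isotype and 534 CPM [524 to 545] in the anti-Skint1 library. Anxa5, whose protein binds phosphatidylserine, was at 135.5 CPM [129.6 to 142] and 133 CPM [127 to 138], and Anxa6, an annexin with a doubled core that binds membranes and calcium-dependent signaling proteins, at 126 CPM [120.1 to 132] and 133 CPM [127 to 138]. Those 2 genes overlapped within their intervals in both libraries. Anxa1, known for limiting inflammation, was low, with 76 UMIs (5.18 CPM) and 118 UMIs (6.31 CPM), against 1.29 and 1.62 CPM computed from free RNA. DETCs thus held S100A11 mRNA at a high level with almost no mRNA of its annexin A1 partner.

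**Figure D1:**
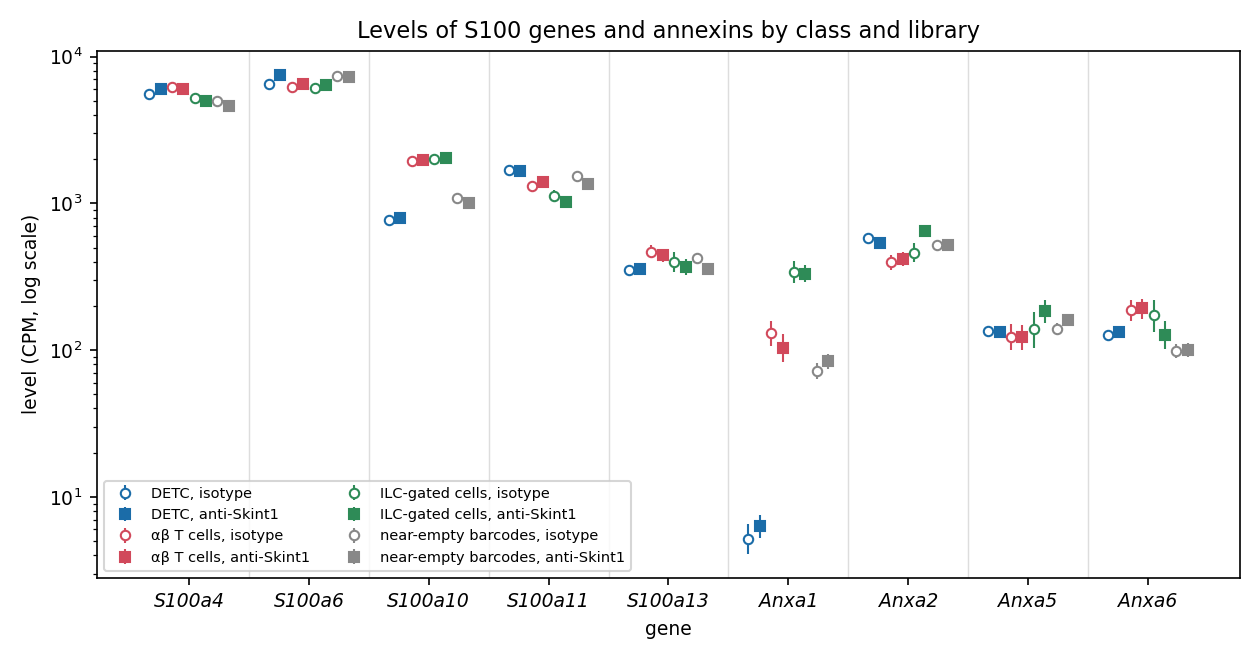
Level of the 9 members in CPM on a log axis for DETCs, αβ T cells, ILC-gated cells and near-empty barcodes, with 1 point per library and bars for the 95% counting interval. S100a6 and S100a4 lead in every class, and Anxa1 spans the widest range, from 5.18 and 6.31 CPM in DETCs to 342 and 332 CPM in ILC-gated cells.

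Free RNA was read from barcodes with 1 to 100 UMIs, which held 3541793 UMIs in the isotype and 3275946 in the anti-Skint1 library. There S100a6 was at 7361 and 7294 CPM, S100a4 at 4949 and 4601 CPM, S100a11 at 1527 and 1354 CPM and S100a10 at 1091 and 1013 CPM. Free RNA was thus rich in S100 mRNA too, with S100a4 and S100a11 below their level in DETCs and S100a10 above it in both libraries. S100a13 stood at 425 and 355 CPM, Anxa2 at 524 and 519.5 CPM, Anxa5 at 140.3 and 160.3 CPM, Anxa6 at 98.5 and 100.1 CPM and Anxa1 at 72.6 and 84.3 CPM. Free RNA made up an estimated 1.78% and 1.92% of the UMIs of DETCs, 2.02% and 1.57% of αβ T cells, and 2.10% and 2.22% of cleaned ILCs, by the keratinocyte list. For cleaned ILCs the selection limits this estimate and the values computed from it below, since barcodes with at least 5 UMIs of that list had been left out. The same estimate gave 40.9% and 249% for the uncleaned ILC gate, where it is void.

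The class comparison asks which members separate DETCs from the other lymphocytes of the same skin. S100a10 and Anxa1 were higher in αβ T and in ILC-gated cells than in DETCs in both libraries, and none of the others differed by the 2-fold used here the same way in both. In αβ T cells 2 of 9 members were higher in both libraries, where 4.05% of the 2593 genes with a mean of at least 50 CPM were, and 0 were lower, where 8.56% were. In ILC-gated cells the counts were again 2 higher and 0 lower, beside 5% and 11.6% of 2520 genes. Anxa1 passed the floor of 50 CPM only through the class where it was high, so it had to differ. The median log2 ratio of the members was 0.07 for αβ T cells and 0.11 for ILC-gated cells, against -0.13 and -0.11 over all genes tested. By library, the median gene stood at -0.10 in the isotype and -0.13 in the anti-Skint1 library for αβ T over DETC, and at -0.06 and -0.12 for ILC over DETC, so ratios are also given less these medians.

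S100a10, which holds annexin A2 at the membrane, was at 1953 CPM [1858 to 2052] in αβ T cells of the isotype and 1973 CPM [1879 to 2070.2] of the anti-Skint1 library. Relative to DETCs its log2 ratio was 1.34 [1.26 to 1.41] and 1.31 [1.23 to 1.38], or 1.44 and 1.44 less the median gene. In ILC-gated cells it was at 2016 and 2029 CPM, 1.38 and 1.35 on the log2 scale, with 1.37 and 1.40 in cleaned ILCs. The level of both other classes therefore lay about 2.5-fold over that of DETCs, and they did not differ from each other beyond counting error (log2 ratio ILC over αβ T 0.05 [-0.08 to 0.17] and 0.04 [-0.06 to 0.15]). Near-empty barcodes lay between DETCs and these classes. With no upper limit on genes the ILC ratio dropped to 0.22 and 0.07, which ends that call, whereas the stricter αβ T gate without Trdc gave 1.52 and 1.69.

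Anxa1 showed a larger step. It was at 129.9 CPM [106 to 157] in αβ T cells of the isotype and 104 CPM [83.3 to 128] of the anti-Skint1 library, 25.1-fold and 16.5-fold the level in DETCs (log2 4.65 and 4.04). Over the alternatives the αβ T ratio ran from 3.91 to 5.39 in the isotype and from 2.95 to 4.62 in the anti-Skint1 library, and with at most 5% mitochondrial UMIs Anxa1 was under the floor, which ends the call. ILC-gated cells had 342 CPM [286 to 406] and 332 CPM [289.6 to 379], a log2 ratio over DETCs of 6.04 [5.63 to 6.47] and 5.72 [5.39 to 6.05]. The order ILC over αβ T over DETC held in both libraries, with log2 ratios of ILC over αβ T of 1.40 [1.01 to 1.78] and 1.67 [1.31 to 2.05]. With keratin-rich and myeloid barcodes left out, the ILC level was 350.1 and 275 CPM and the ratio over DETCs 6.08 and 5.45.

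In αβ T cells their complex partners did not follow. Anxa2, the partner of S100a10, was at 396 CPM [353 to 442] and 419.6 CPM [377 to 466] in αβ T cells, a log2 ratio over DETCs of -0.55 [-0.72 to -0.39] and -0.35 [-0.51 to -0.19]. The count of S100a10 UMIs for each Anxa2 UMI was accordingly 1.33 [1.29 to 1.37] and 1.49 [1.45 to 1.53] in DETCs and 4.93 [4.37 to 5.58] and 4.70 [4.19 to 5.29] in αβ T cells. In ILC-gated cells the Anxa2 ratio over DETCs was -0.33 [-0.55 to -0.12] in the isotype but 0.27 [0.13 to 0.41] in the anti-Skint1 library, and -0.34 and 0.05 when cleaned. S100a10 UMIs for each Anxa2 UMI were 4.36 [3.70 to 5.16] and 3.14 [2.81 to 3.51] there (4.34 and 3.79 when cleaned), under the αβ T value in the anti-Skint1 library, and near-empty barcodes had 2.08 and 1.95. S100a10 thus exceeded Anxa2 in every class, least in DETCs.

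S100a11, the partner of annexin A1, ran the opposite way to Anxa1. It was at 1308 and 1390.4 CPM in αβ T cells, with log2 ratios over DETCs of -0.37 [-0.46 to -0.28] and -0.25 [-0.34 to -0.17]. In ILC-gated cells it was at 1120.3 and 1019 CPM, -0.60 and -0.70 on the log2 scale, and in cleaned ILCs -0.57 and -0.90. For each Anxa1 UMI there were 327 and 263 S100a11 UMIs in DETCs, 10.1 and 13.4 in αβ T cells, and 3.27 and 3.07 in ILC-gated cells. DETCs had the highest S100a11 level of the 3 classes in both libraries, short of the 2-fold.

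The remaining members did not pass the 2-fold in either class. S100a4 was at 6197 and 6012 CPM in αβ T cells and 5259.6 and 5006 CPM in ILC-gated cells (5412 and 5813 CPM when cleaned). S100a6 was at 6260.3 and 6524 CPM in αβ T cells and 6145 and 6455 CPM in ILC-gated cells. Neither differed from DETCs by more than 0.27 on the log2 scale in either library. With no upper limit on genes the ILC ratio dropped to -1.75 and -2.10 for S100a4, past the 2-fold, and to -0.88 and -1.24 for S100a6.

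S100a13 was at 469.6 and 444 CPM in αβ T cells, log2 ratios over DETCs of 0.41 [0.26 to 0.56] and 0.31 [0.16 to 0.46], and at 399.6 and 368 CPM in ILC-gated cells. Anxa6 was at 187 and 192 CPM in αβ T cells, 0.57 [0.32 to 0.82] and 0.54 [0.30 to 0.77] over DETCs, and at 172 and 127 CPM in ILC-gated cells. With no upper limit on genes the ILC ratios dropped past the 2-fold, to -1.03 and -1.28 for S100a13 and -1.26 and -1.94 for Anxa6. Each gene was higher in αβ T cells than in DETCs beyond counting error in both libraries, yet under the 2-fold. Anxa5 was at 124 and 123 CPM in αβ T cells and 138 and 183 CPM in ILC-gated cells. Its αβ T level did not differ from DETCs beyond counting error in either library.

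**Figure D2:**
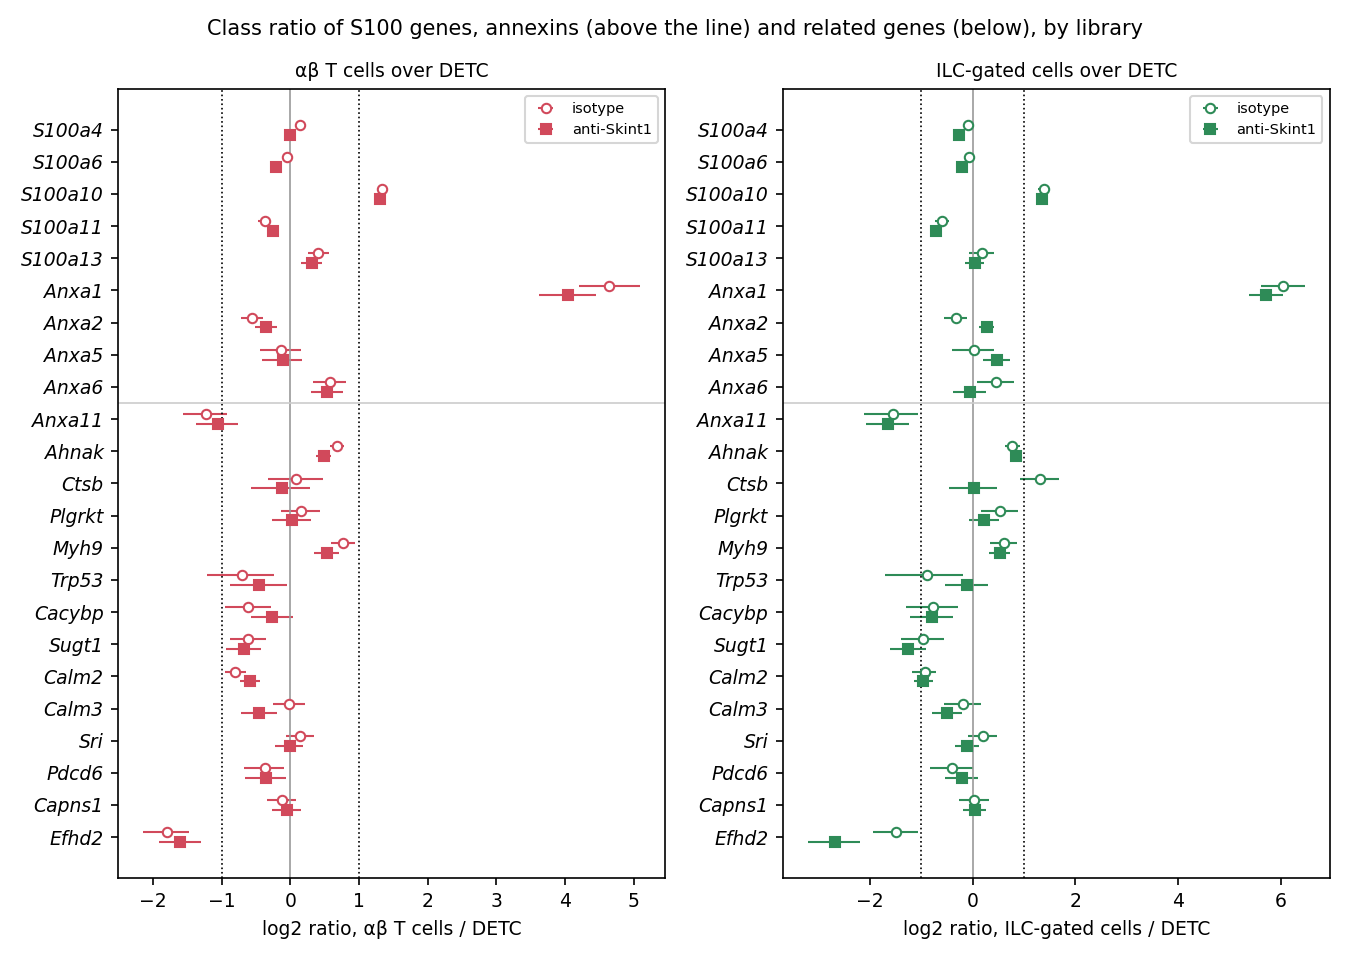
Log2 ratio of CPM of αβ T cells over DETCs (left) and of ILC-gated cells over DETCs (right), with 1 point per library, bars for the 95% counting interval, and dotted lines at the 2-fold. Members stand above the gray line and some related genes at the floor in DETCs below it; S100a10 and Anxa1 lie to the right of the 2-fold in both libraries, Anxa11 and Efhd2 to the left.

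To compare how many cells held a gene, every cell was thinned to 2000 UMIs, which left out 134 and 202 DETCs, 7 and 17 αβ T cells and 5 and 3 cleaned ILCs. Median depths before thinning were 4028 and 3577 UMIs in DETCs, 3766 and 3581 in αβ T cells and 4418 and 4190.5 in cleaned ILCs. Anxa1 was found in 0.938% [0.643 to 1.32] of 3410 DETCs of the isotype and 0.928% [0.675 to 1.24] of 4743 of the anti-Skint1 library, where free RNA alone would give 0.258% and 0.324%. In αβ T cells the share was 14.2% [9.58 to 20.0] and 13.3% [8.85 to 18.8], with 0.292% and 0.264% from free RNA, and in cleaned ILCs 43.9% [31.7 to 56.7] and 45.1% [35.8 to 54.8], with 0.304% and 0.374%. Anxa1 was thus found in few DETCs, in a minority of αβ T cells and in a larger share of cleaned ILCs. Without thinning the shares were 1.61% and 1.80% in DETCs, 26.4% and 22.5% in αβ T cells, and 59.2% and 63.8% in cleaned ILCs.

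Shares of cells say less for S100a10, which most cells of every class held. S100a10 was found in 72.7% [71.2 to 74.2] and 73.7% [72.4 to 74.9] of thinned DETCs, where free RNA would give 3.81% and 3.82%, and in 87.8% and 85.4% without thinning. The share in αβ T cells was 92.6% [87.9 to 95.9] and 86.2% [80.6 to 90.7], with 4.30% and 3.12% from free RNA (unthinned 97.5% and 91.1%). Mean thinned UMIs per cell were 1.51 and 1.54 in DETCs and 3.77 and 3.74 in αβ T cells. Anxa2 was found in 62.6% [61.0 to 64.3] and 58.7% [57.3 to 60.1] of thinned DETCs (unthinned 80.3% and 76.1%) and 47.9% [40.6 to 55.2] and 52.6% [45.3 to 59.7] of αβ T cells (unthinned 62.4% and 63.8%), with at most 2.09% from free RNA in these classes.

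The treatment comparison asks whether the members changed in the epidermal lymphocytes of mice given anti-Skint1 antibody. In DETCs none of the members passed the treatment fold, a log2 ratio of at least 0.32 in either direction. Of the 8 members with at least 50 CPM over both libraries, 0 were higher, where 0.21% of 2852 genes were, and 0 were lower, where 1.51% were. Their median log2 ratio, anti-Skint1 over isotype, was 0.03, and that of all genes tested -0.03. Anxa1, under the floor, had a log2 ratio of 0.28 [-0.14 to 0.72] on its 76 and 118 UMIs, and alternatives gave -0.33 to 0.46, so its direction is open.

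Within that fold, S100a6 stood high among all genes. Its 6488 and 7494 CPM gave a log2 ratio of 0.21 [0.20 to 0.22], above 98.6% of the genes tested, and the alternatives tried gave 0.18 to 0.24. In near-empty barcodes the ratio of S100a6 was -0.01 [-0.04 to 0.01]. S100a4 had 0.10 [0.09 to 0.12], above 91.7% of genes, and -0.11 in near-empty barcodes. Each S100a4 UMI was accompanied by 1.16 S100a6 UMIs in the isotype and 1.24 in the anti-Skint1 library. In near-empty barcodes that number was 1.49 and 1.59, a step in the same direction. With free RNA subtracted the treatment ratios were 0.21 for S100a6 and 0.11 for S100a4.

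The complex of S100a10 and Anxa2 showed no common shift. S100a10 had a log2 ratio of 0.04 [0.01 to 0.08] and Anxa2 of -0.12 [-0.16 to -0.08], below which lay 17.0% of genes. S100a11 had -0.03 [-0.05 to -0.01], S100a13 0.02 [-0.04 to 0.07], Anxa5 -0.03 [-0.12 to 0.05] and Anxa6 0.08 [-0.01 to 0.16]. The last 3 had intervals that held 0.

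In αβ T cells 0 of 9 members passed the fold upward with anti-Skint1, where 8.04% of 2588 genes were, and 0 were lower, where 15% were. The member farthest from 0 was Anxa1, with a log2 ratio of -0.32 [-0.75 to 0.10], just inside the fold. Alternatives gave -0.79 to -0.19 for it, past the fold downward under 5 of 10. The rest ran from -0.08 for S100a13 to 0.09 for S100a11. The members' median was 0.01 and that of all genes tested -0.04.

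ILC-gated cells were fewer and their background was wide. Of 9 members, 2 passed the fold upward with anti-Skint1, where 13.8% of 2496 genes were, and 1 was lower, where 22.4% were. Anxa2 rose from 462 to 646 CPM, a log2 ratio of 0.48 [0.23 to 0.74], and Anxa5 from 138 to 183 CPM, 0.41 [-0.07 to 0.90]. Anxa6 fell from 172 to 127 CPM, -0.44 [-0.92 to 0.05]. The keratinocyte list moved with these genes, from 431 to 3999 CPM with all 5 genes higher, as did the myeloid list, from 830.5 to 1334 CPM, and their part in the result was not tested.

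In cleaned ILCs the genes past the fold were others in part. Anxa2 was at 460.4 and 554 CPM there, 0.27 [-0.03 to 0.57], under the fold, and Anxa5 at 139 and 182 CPM, 0.39 [-0.14 to 0.94], still past it. Anxa6 was at 183 and 152 CPM, -0.26 [-0.77 to 0.25], under the fold. S100a11, at 1138 and 891 CPM, had -0.35 [-0.56 to -0.15], and Anxa1, at 350.1 and 275 CPM, -0.35 [-0.72 to 0.03], both lower by more than the fold. These were 1 member higher, where 15.1% of all genes were, and 2 lower, where 22.5% were. The ILC calls thus changed with the barcodes the gate held.

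**Figure D3:**
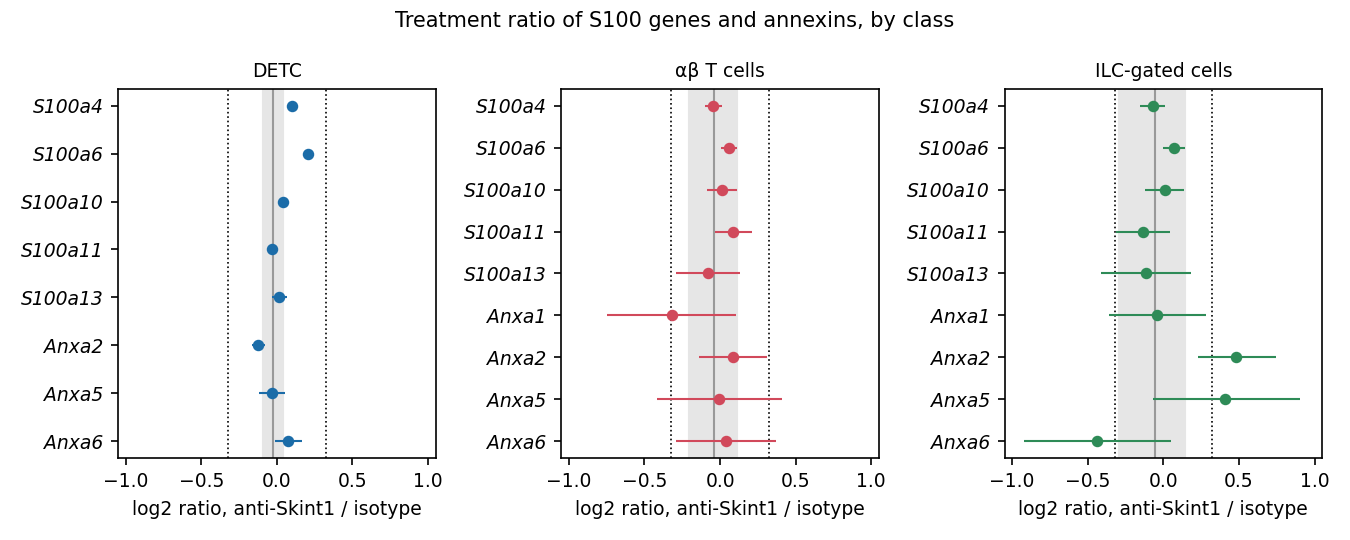
Log2 ratio of CPM, anti-Skint1 over isotype, for the members in DETCs, αβ T cells and ILC-gated cells, with bars for the 95% counting interval, dotted lines at the treatment fold, a line at the median gene and gray over the middle 50% of genes. Anxa1 is not drawn for DETCs, being under 50 CPM. In DETCs and αβ T cells all members at 50 CPM or more lie between the lines, with S100a6 at 0.21 in DETCs.

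Among DETCs themselves, the spread of each member over cells was measured. The Fano factor, the variance of UMIs per cell over their mean, is 1 for pure counting noise at equal depth, and its excess over 1 grows with the mean, so genes at different levels are not ranked by it. It was 2.81 and 2.84 for S100a6, 2.37 and 2.36 for S100a4, and 1.50 and 1.48 for S100a11. S100a10 had 1.40 and 1.44 and Anxa2 1.42 and 1.42, whereas S100a13, Anxa5 and Anxa6 ran from 1.02 to 1.08. Anxa1 had 1.31 and 1.60 on few UMIs. The middle 80% of thinned DETCs held 6 to 21 S100a6 UMIs in the isotype and 7 to 24 in the anti-Skint1 library, and the Fano factor of S100a6 was larger in αβ T cells, 5.84 and 5.88.

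Over the 3410 and 4743 thinned DETCs, all of 1 library each and of equal depth, S100a4 and S100a6 had the highest Pearson r of the 36 pairs of members, 0.384 and 0.394 on log counts. S100a10 and S100a11, neighbors in the genome, had 0.171 and 0.215, and S100a10 and its partner Anxa2 0.104 and 0.134. S100a11 and Anxa1 had -0.0441 and -0.00278, no relation at the counts of Anxa1. These values describe the cells of 1 library each and carry no test.

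The genes whose counts ran most closely with the members, among 638 or 639 genes with at least 200 CPM, recurred from member to member. For S100a4 they were S100a6, Lgals1 (a galectin) at 0.297 and 0.349, and Tmsb4x (an actin monomer binder) at 0.294 and 0.293. For S100a6 they were S100a4, Crip1 (a LIM domain protein) at 0.334 and 0.329, and Lgals1 at 0.296 and 0.342. The median r of S100a4 with all those genes was 0.0143 and 0.0113. S100a10 ran with Crip1 at 0.217 and 0.231, S100a11, and Vim, the filament gene vimentin, at 0.169 and 0.213, and S100a11 with Crip1 at 0.242 and 0.227, S100a4 at 0.226 and 0.225, and Vim at 0.208 and 0.227. Anxa2 ran with Crip1 at 0.216 and 0.255, Ctla2a (a cathepsin inhibitor) at 0.224 and 0.191, and S100a11 at 0.153 and 0.155. Crip1 was among the first 3 for 4 of these 5 members, which was not tested.

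For the less abundant members the leading values were weak. S100a13 led with Tmsb4x at 0.126 and 0.124, before Crip1 and S100a4. Anxa1 (Zfp36l1, S100a10, Crip1), Anxa5 (S100a11, Anxa2, Txn1) and Anxa6 (Arl6ip5, S100a10, Tacc1) had no value over 0.0681 with the 3 genes named for each. In sparse counts such values are no finding.

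DETCs also differ in their immediate early genes, such as Fos and Jun, which respond within minutes to stimulation and to tissue digestion. Thinned DETCs were ranked by UMIs of 6 such genes, split into 3 sets of equal size, and the lowest set (1136 and 1581 cells, 0 to 8 UMIs) was compared with the highest (20 to 108 and 20 to 99 UMIs). The median gene was 0.17 higher on the log2 scale in the lowest set in both libraries, so ratios are given less that shift. S100a10 was at 902 and 967 CPM in the lowest set and 649.6 and 595 CPM in the highest, 0.30 and 0.53 less the median gene. Anxa2 was at 624 and 630.0 CPM in the lowest set and 541 and 401 CPM in the highest, 0.03 and 0.48. After that shift 0 of 8 members were past the same fold upward in the lowest set in both libraries, where 5.56% of 2771 genes were, and 0 lower, where 17% were.

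S100a11 had 0.16 and 0.27 in this comparison, S100a4 0.03 and 0.17, and S100a6 0.01 and 0.12. All 5 of these genes had larger values in the anti-Skint1 than in the isotype library. They are only a part of the members compared: S100a13, Anxa5 and Anxa6 are drawn in the figure without values here. The treatment ratio of Anxa2 was 0.01 [-0.09 to 0.11] in the lowest set, -0.19 [-0.29 to -0.08] in the middle set and -0.43 [-0.55 to -0.32] in the highest, below which lay 1.13% of genes. S100a6 had 0.27 [0.24 to 0.30] in the lowest and 0.16 [0.13 to 0.19] in the highest set. Differences between the sets were not tested.

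**Figure D4:**
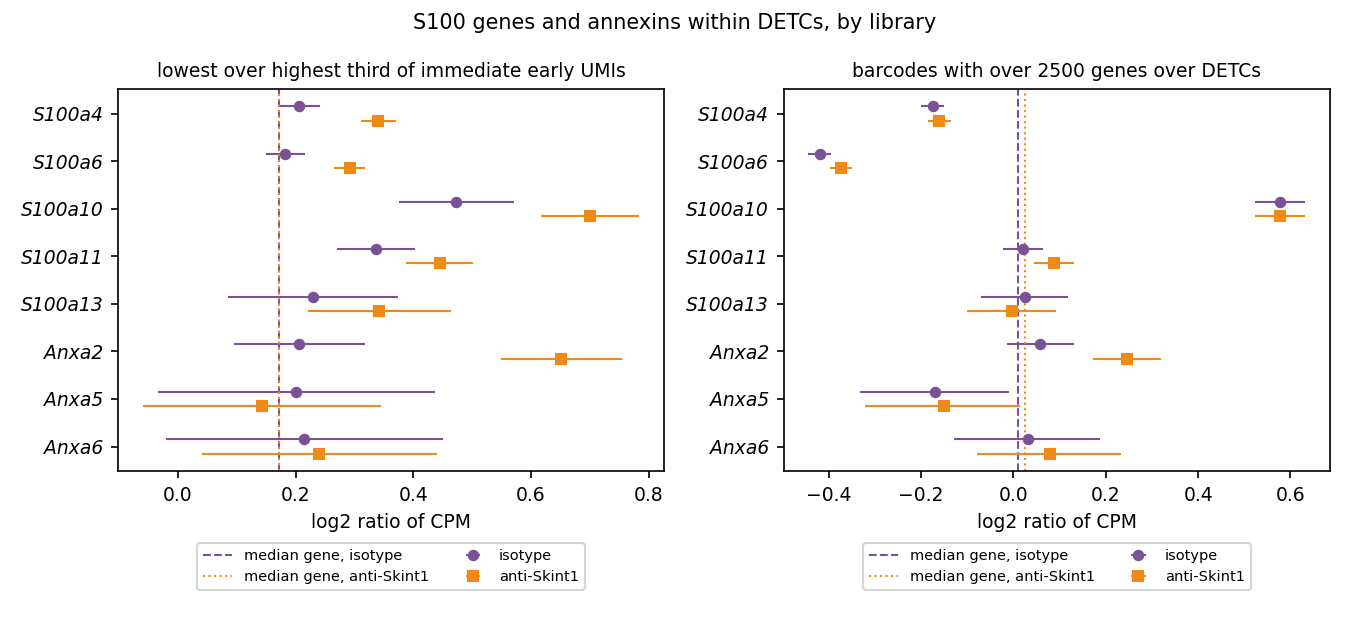
Log2 ratio of CPM within DETCs by library, for the lowest over the highest set of immediate early UMIs (left) and for barcodes with over 2500 genes over DETCs (right), with bars for the 95% counting interval and vertical lines at the median gene of each library. Anxa1 is not drawn, being under 50 CPM; S100a10 stands right of the median gene in both panels and S100a6 left of it in the right panel.

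Barcodes over the limit of 2500 genes that passed the other DETC gates numbered 312 and 287, with median depths of 9347 and 8890 UMIs. S100a10 was at 1154 and 1189 CPM there, a log2 ratio over DETCs of 0.58 [0.52 to 0.63] in each library, and S100a6 at 4853 and 5784 CPM, -0.42 [-0.44 to -0.39] and -0.37 [-0.40 to -0.35]. Of 8 members, 1 was higher by at least that fold in both libraries, where 14.1% of 2842 genes were, and 1 lower, where 9.11% were. These barcodes held a list of 10 cell division genes at 2618 and 2215 CPM, with all 10 at 50 CPM or more, against 232 and 187 CPM in DETCs. The keratinocyte list was also high, at 852 and 1435 CPM with Krt14 leading at 492 and 657 CPM, and the myeloid list was at 51.0 and 221 CPM, led by Cd74 in the isotype and Lyz2 in the anti-Skint1 library. The part of these lists in the result was not tested.

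With barcodes of at least 5 keratinocyte-list or 5 myeloid-list UMIs left out, 297 and 275 remained, and the keratinocyte list summed to 9.46 and 20.3 CPM. The same counts held there, 1 higher beside 14.7% of 2855 genes and 1 lower beside 7.74%, and they were the same members: S100a10 at 0.60 and 0.60, and S100a6 at -0.42 and -0.34. Anxa1 was lower once these were left out: 29.4 and 48.6 CPM in all large barcodes, and 11.2 and 15.6 CPM in the rest, beside 5.18 and 6.31 CPM in DETCs.

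Among DETCs within the gene limit, 326 and 302 cells had at least 3 UMIs of the division list. Compared with the rest, 0 of 8 members were higher by that fold in both libraries, where 4.75% of 2714 genes were, and 0 lower, where 0.847% were. S100a10 was at 890.3 and 892 CPM in these cells and 759.9 and 789 CPM in the rest, 0.23 and 0.18. Cenpa, a centromere histone gene, made up most of the list there, at 139 and 109.6 CPM in DETCs.

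Without Cenpa, a choice made after seeing the data, 68 and 76 dividing cells remained, and 2 members were higher, where 17.4% of 2726 genes were, and 2 lower, where 12.3% were. S100a10 was at 1429 and 1388 CPM in these cells, 0.92 [0.79 to 1.05] and 0.82 [0.70 to 0.94], and S100a11 at 2289.8 and 2311 CPM, 0.45 and 0.49. S100a6 was at 4668 and 5740.3 CPM, -0.48 [-0.56 to -0.41] and -0.39 [-0.45 to -0.33], and Anxa5 at 94.4 and 99.5 CPM, -0.53 and -0.42. S100a10 was thus higher and S100a6 lower both in these cells and in the large barcodes. In dividing cells that rests on the list without Cenpa, and in both sets 1 or 2 of 8 members are too few to set apart from the shares of all genes.

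Other lymphocytes of the libraries carried the same leading genes. αβ T cells with Cd8a or Cd8b1 but no Cd4 or Foxp3 UMIs (25 and 17) had S100a6 at 7398 and 8351 CPM, and those with Cd4 but no Cd8a, Cd8b1 or Foxp3 UMIs (44 each) at 4806 and 5777 CPM. The CD8 cells were higher in S100a6, with log2 ratios of 0.62 [0.48 to 0.77] and 0.53 [0.38 to 0.68], while S100a4 did not differ beyond counting error. The lower and upper quartiles of all genes compared were -0.32 and 0.53 in the isotype and -0.52 and 0.44 in the anti-Skint1 library. S100a6 thus lay only just past the upper quartile in each library, which does not set it apart from genes in general. In αβ T cells with Foxp3, the regulatory T cell factor (17 and 12), S100a10 was at 2961 and 2109 CPM, and Anxa1 gave 3 UMIs in the isotype and 0 in the anti-Skint1 library, where 0 in 35564 UMIs allows up to 104 CPM at the 95% level.

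Keratin-rich barcodes without CD3 UMIs, 1 in the isotype and 10 in the anti-Skint1 library, had another profile. In the 10, S100a6 was at 4109.9 CPM, Anxa2 at 1144 CPM, Anxa1 at 691 CPM and S100a4 at 50.3 CPM from 4 UMIs. They carried S100a14 at 892 CPM and Anxa8 at 729 CPM, epidermal members of the same families. In these 10 barcodes S100a4 was far below, and Anxa1 and Anxa2 were above, all lymphocyte classes. The single barcode of the isotype library, which held 6 S100a4 UMIs, is too little to compare.

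The other members of both families were mostly silent in these lymphocytes. Of 13 other S100-named genes listed, 0 reached 50 CPM in DETCs or αβ T cells, where they summed to 45.3 and 40.5 CPM in DETCs, led by S100a1 at 27.5 and 23.3 CPM. In ILC-gated cells S100a14 rose from 7.83 to 98.6 CPM, and 0 UMIs of it were left in cleaned ILCs of either library. Of 8 other annexins listed, 7 were in the files.

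Anxa11, which takes part in vesicle and RNA granule transport, was the 1 of them at the floor in DETCs, at 246 and 236 CPM. It was lower by more than 2-fold in αβ T cells, at 105 and 114 CPM (-1.23 [-1.56 to -0.92] and -1.06 [-1.37 to -0.76]), and in ILC-gated cells, at 83.6 and 75.8 CPM (-1.56 and -1.64), and it was not past the treatment fold in any class. Anxa11 and Anxa1 thus took opposite places: 47.5 and 37.5 Anxa11 UMIs for each of Anxa1 in DETCs, 0.808 and 1.09 in αβ T cells, and 0.244 and 0.228 in ILC-gated cells. Anxa8 was at 15.7 and 97.0 CPM in ILC-gated cells, with 0 and 2 UMIs in cleaned ones. Anxa7 was at 26.1 CPM in ILC-gated cells of the isotype library, from 10 UMIs, and at 59.1 CPM in those of the anti-Skint1 library. When cleaned it was at 15.8 and 45.5 CPM.

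Of 23 genes listed as partners or targets of the members, 7 reached the floor in DETCs. In the treatment comparison of DETCs 0 of these were higher, where 0.21% of all genes were, and 0 lower, where 1.51% were. The most abundant was Ahnak, a giant scaffold that the S100A10 and annexin A2 complex binds, at 626.5 and 659 CPM in DETCs, 1005 and 923 CPM in αβ T cells and 1073 and 1186 CPM in ILC-gated cells. Its log2 ratio over DETCs was 0.68 and 0.49 in αβ T cells and 0.78 and 0.85 in ILC-gated cells, the direction of S100a10. In both libraries 0 of the 7 passed the 2-fold in αβ T cells, where 4.05% of all genes were higher and 8.56% lower. In ILC-gated cells 0 passed it too, where 5% were higher and 11.6% lower. Myh9, the non-muscle myosin heavy chain bound by S100A4, was at 218 and 206 CPM in DETCs and 372 and 298 CPM in αβ T cells.

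Cacybp and Sugt1, whose proteins bind S100A6, were at 150.5 and 136 CPM and at 244 and 253 CPM in DETCs. Unlike Ahnak, both were lower in the other classes. Cacybp was at 98.7 and 114 CPM in αβ T cells and 88.8 and 78.9 CPM in ILC-gated cells. Sugt1 was at 160 and 158 CPM and at 125 and 106 CPM. Over the 7 partners at the floor, the median log2 ratio to DETCs was -0.02 in αβ T cells and 0.39 in ILC-gated cells. Plgrkt, a plasminogen receptor, was at 124 and 125 CPM, Trp53, the p53 gene, at 77.1 and 84.9 CPM, and Ctsb, a lysosomal protease gene, at 67.1 and 62.5 CPM. With anti-Skint1, in αβ T cells 1 of the 7 was higher (Trp53, 47.5 to 62.2 CPM) and 1 lower (Myh9), where 8.04% and 15% of all genes were. In ILC-gated cells 1 was higher (Trp53, 41.8 to 78.9 CPM) and 1 lower (Ctsb, 167 to 63.7 CPM), where 13.8% and 22.4% were. Rasa1, a Ras regulator, reached 52.2 CPM in ILC-gated cells of the isotype library alone.

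Other EF-hand genes, which bind calcium by the same fold, were listed for comparison. In DETCs Calm2 was at 768 and 768 CPM, Efhd2 at 330.0 and 329.7 CPM, Capns1 at 253 and 249 CPM, Sri at 244 and 250.1 CPM, Calm3 at 205 and 214 CPM and Pdcd6 at 165 and 154 CPM. Each of these was below S100a4 and S100a6, and none of them passed the treatment fold there. Calm3 was lower with anti-Skint1 in αβ T cells (202 to 157 CPM), and Efhd2 in ILC-gated cells (118 to 51.6 CPM). Efhd2, an actin-binding calcium sensor, was past the class fold, lower in αβ T cells at 94.9 and 109 CPM and in the ILC-gated cells.

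All 5 S100 members lie on the plus strand of chromosome 3 of GRCm38, the assembly of the files. S100a4 (ENSMUSG00000001020, 90603771 to 90606045) ends 6836 bases before S100a6 (ENSMUSG00000001025, 90612882 to 90624181). S100a5 lies between them, a gene named here after its values were seen, and gave 2 and 6 UMIs in DETCs. S100a13 (ENSMUSG00000042312, 90514435 to 90524581) is 79189 bases before S100a4. S100a11 (ENSMUSG00000027907, 93520488 to 93526287) and S100a10 (ENSMUSG00000041959, 93555080 to 93564643) stand apart from these and 28792 bases from each other. Neighbors differed in level, since a gene at 2 and 6 UMIs sat between the most abundant members. The annexins are dispersed: Anxa5 on chromosome 3 (36448923 to 36475894), Anxa2 on 9, Anxa6 on 11 and Anxa1 on 19. S100a4 overlaps Gm42674 on the same strand in the annotation.

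Promoter sequences are shown for S100a4 and S100a6, the neighbors whose counts ran most closely together, to let their starts be compared. RefSeq promoters of GRCm38.p6, 250 bases before to 50 after each start, matched 7 of the 9 members: S100a4, S100a6, S100a11, S100a13, Anxa1, Anxa2 and Anxa5, with S100a10 and Anxa6 not among them. The windows are chr3:90603520-90603819 for S100a4 and chr3:90612644-90612943 for S100a6, both on the plus strand. The box TATAAA, the Sp1 site GGGCGG and the AP-1 site, which reads TGA, any base and then TCA, were searched on both strands, and capitals mark TATAAA, found in S100a4 at -31 from the start.
S100a4: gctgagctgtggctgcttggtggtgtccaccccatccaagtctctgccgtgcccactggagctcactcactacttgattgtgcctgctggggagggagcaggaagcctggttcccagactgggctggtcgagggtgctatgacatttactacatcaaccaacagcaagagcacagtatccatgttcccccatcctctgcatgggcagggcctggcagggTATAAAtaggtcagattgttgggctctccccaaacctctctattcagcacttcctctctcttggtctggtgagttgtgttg
S100a6: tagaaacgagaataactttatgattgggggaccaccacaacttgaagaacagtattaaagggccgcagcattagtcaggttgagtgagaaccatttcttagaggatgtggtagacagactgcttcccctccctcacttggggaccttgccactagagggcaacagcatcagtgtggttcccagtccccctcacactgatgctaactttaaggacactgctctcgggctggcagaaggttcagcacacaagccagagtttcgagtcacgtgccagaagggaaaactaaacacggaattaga
The S100a6 window held none of these motifs. Of 32851 promoters of the same length, 13.6% held TATAAA, 35.7% GGGCGG and 7.81% the AP-1 site. A match describes the sequence and shows no binding, and the lack of one says only that the motif is not in this window.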

How the data were processed

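Counts of UMIs per gene and barcode were deposited by the authors for all barcodes of both libraries, unfiltered and not normalized, and were made with CellRanger 3.0.2 on the mm10 index 3.0.0, which is GRCm38. Every value was checked to be a whole number. Kept barcodes had 500 to 2500 genes and no more than 12% of UMIs from mitochondrial genes. For each class the UMIs of its barcodes were pooled by library, scaled to CPM with exact Poisson intervals, and set in ratio with exact conditional binomial intervals. Shares of cells carry exact Clopper-Pearson intervals. No pseudocount was used. Calls needed a log2 ratio of 0.32 between treatments, the same in both libraries within DETCs, or 2-fold between classes in both libraries. Tested genes had at least 50 CPM pooled over both libraries (treatment) or as the mean of the compared groups.

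The members and gene lists were chosen with earlier results of these data known, and some lists and code came from that work. The genes named are the 9 members, all list genes at 50 CPM or more in a class, and for each member the 3 genes with the highest r, ranked by the lower value of both libraries. Genes named beyond that, such as list markers under the floor, were picked with their values in view.

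The work used Python 3.11.15, numpy 2.4.6, scipy 1.17.1, matplotlib 3.10.9, scanpy 1.11.5, anndata 0.12.19 and scikit-image 0.26.0. Ratios were first run on simulated counts. Doublets were kept. Alternatives changed the limits on genes and on mitochondrial UMIs, doublets (the highest Scrublet scores left out at 0.8% per 1000 barcodes), the gates, the scaling, the weight of cells, free RNA, the floor and the depth of thinning. The middle set of DETCs by immediate early UMIs was also added after seeing the data. After seeing the data, 6 more alternatives were added: ILC and large barcodes without keratinocyte or myeloid UMIs, barcodes in both gates left out, DETCs of 3000 to 4000 UMIs, the division list without Cenpa, and a stricter gate for other γδ T cells. Results of that gate and some genes of the lists are not reported here.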

Additional observations from a re-analysis of the deposited data

Results flagged for a closer look

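The treatment ratio of S100a10 had opposite signs in the lowest and highest of 3 equal sets of DETCs by immediate early UMIs. Its log2 ratio, anti-Skint1 over isotype, was 0.10 [0.02 to 0.18] in the lowest set and -0.13 [-0.23 to -0.03] in the highest, and the difference was not tested.

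Anxa2 had opposite signs in DETCs and ILC-gated cells, with log2 ratios of -0.12 [-0.16 to -0.08] and 0.48 [0.23 to 0.74], and 0.27 [-0.03 to 0.57] in cleaned ILCs. The difference from DETCs was 0.60 [0.35 to 0.87], and 0.39 [0.09 to 0.69] when cleaned, by counting error alone.

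Near-empty barcodes, which serve only as a measure of free RNA, held S100a8 and S100a9, the genes of calprotectin, which is abundant in neutrophils and in stressed keratinocytes. S100a8 gave 149 UMIs in the isotype and 31 in the anti-Skint1 library, and S100a9 gave 170 and 73, whereas DETCs held 0 and 2 UMIs of S100a8 and 11 and 11 of S100a9.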

How the results depend on the processing

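S100a10 over DETC kept its direction and the 2-fold in αβ T cells under all 13 alternatives (log2 1.17 to 1.69 over both libraries), but in ILC-gated cells it lost the 2-fold with no upper limit on genes, at 0.22 in the isotype and 0.07 in the anti-Skint1 library. Anxa1 stayed at 2.95 or more in αβ T cells and 5.16 or more in ILC-gated cells. S100a6 in DETCs stayed at 0.18 to 0.24 between treatments. Over all alternatives, 600 of 747 ratios of single members stayed within their interval, 146 moved beyond it, and 1 that had been past the fold reversed. Signs changed in 64 of the 747, of which 10 were among the 452 values of ratios whose own interval did not hold 0. The changes included Anxa2 and Anxa6 of ILC over DETC in the isotype library, at -0.33 and 0.45 with the limit, which became 0.65 and -1.26 with no upper limit on genes.

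Counts of members are given with the share of all genes past the same fold. With at most 5% mitochondrial UMIs, the DETC median between treatments was 0.0751, 1 member was lower in αβ T cells (25.6% of genes) and 2 in ILCs (41.9%), Anxa5 in ILCs reversed to -0.00714, and αβ T over DETC had 1 member higher (4.17%) and a median of -0.10, Anxa1 being under the floor. With no upper limit on genes, 1 member was lower in αβ T cells (16.6%), 0 were higher (6.71%) and 0 lower (7.94%) in ILCs, and ILC over DETC had 1 higher (8.56%), 3 lower (21.03%; S100a4, S100a13 and Anxa6) and a median of -0.78. Between treatments the αβ T member that was lower was Anxa1, also with at least 1000 genes (15.97%), without the highest Scrublet scores (15.2%) and with free RNA subtracted (15.4%). The strict αβ T gate gave 1 member higher (15.4%) and a class median of 0.16, centering on the median gene 0.19 and totals without ribosomal and mitochondrial genes 0.21. In ILCs, 1 member was higher and 2 lower without CD3 or Trac UMIs (23.9% and 31.6%) and when cleaned (15.1% and 22.5%), and 1 higher by per-cell means (13.02%). The median Fano factor was 1.60 and 1.61 at 3000 UMIs. Without Cenpa 2 members were higher (17.4%) and 2 lower (12.3%) in dividing DETCs. The cause was not tested for any of these.

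Subtraction of free RNA was not run for ILCs, whose keratin UMIs void the estimate. With 1 library per treatment, differences between mice were not measured. In ILC-gated cells Anxa5 rested on 53 and 121 UMIs and Anxa6 on 66 and 84, so their intervals were wide.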
